A study of Mus musculus with 14 samples.

Results

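Newborn mouse islets kept in vehicle were described from the 7 DMSO libraries, out of 14 libraries in the whole series. They were chosen by their label alone, and no measured value entered the choice. Each library held RNA from pancreatic islets of C57BL/6JRj pups at postnatal day 0, cultured for 1 day with DMSO in RPMI medium with 11 mM glucose, 10% serum and antibiotics. The islets had been picked by hand and left overnight before the vehicle was added, and pancreases of several male or female pups were pooled for each sample. Every replicate carries its own batch number, so batch and library cannot be told apart, and all values below describe the spread between pools. No treatment was compared.

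Islets hold insulin-producing beta cells, glucagon-producing alpha cells, somatostatin-producing delta cells and small numbers of PP and epsilon cells, together with capillaries, nerves, stroma and resident macrophages. Around birth the endocrine cells still divide, and beta cells lack several traits of adult ones. Mature mouse beta cells are known for Mafa and Ucn3, for the glucose transporter Slc2a2, and for shutting off genes such as Ldha and Slc16a1 that most other cells use. In these bulk libraries, fewer cells of a type and less RNA per cell cannot be told apart.

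The libraries held 26475749 to 36900026 counts in replicates 1 to 6 and 108865228 in replicate 7, with 25643 to 28911 genes detected by at least 1 count. A single count equalled 0.00919 to 0.0378 CPM (counts scaled to a common library total), and 3 counts, the limit set for a gene at 0, equalled 0.0276 to 0.113 CPM. Across genes, which are not independent replicates, the log2 CPM of any pair of libraries (21 pairs) correlated with r between 0.937 and 0.975. Mitochondrial genes took 1.74% to 4.26% of counts, most in replicate 7. Replicate 5 went against its islet label in the hormone genes that define beta and alpha cells: it had 72 counts of Ins2, or 2.27 CPM with a 95% Clopper-Pearson interval of 1.78 to 2.86, and 3 counts of Gcg, or 0.0945 CPM with an interval of 0.0195 to 0.276. These intervals cover counting error only. Results that rest on replicate 5 are given with and without it.

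**Figure D1:**
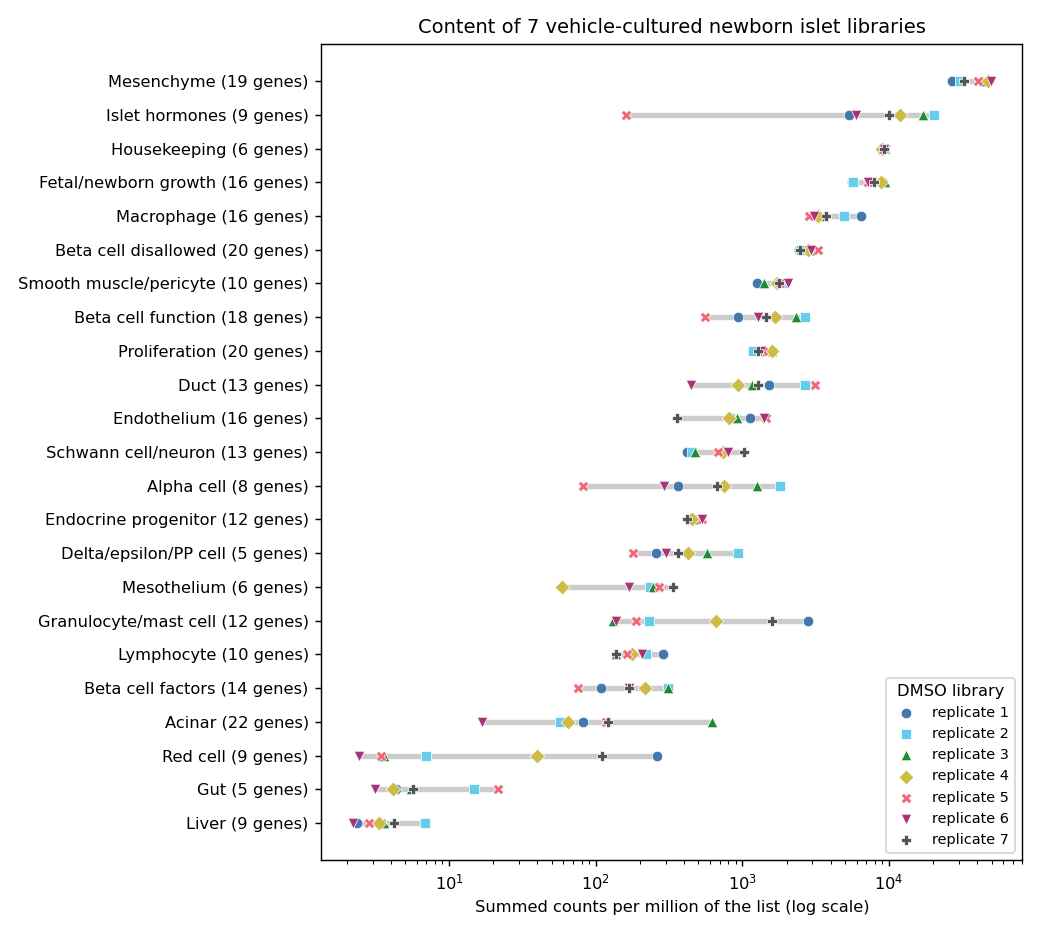
Summed CPM of fixed marker lists (log scale) in the 7 DMSO libraries, 1 symbol per library and a grey bar from the lowest to the highest. With no division by gene length, mesenchymal genes lay above every other list. Housekeeping and endocrine progenitor genes varied least, and hormone, red cell and acinar genes spread furthest. The hormone spread rests on replicate 5, and was 126-fold with it and 3.81-fold without it.

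Insulin, ribosomal and collagen genes were among the most abundant messages of the newborn culture. Ranked by TPM (transcript abundance, counts divided by gene length and scaled to a fixed total), the nuclear protein-coding genes at the top by median were Rplp1, a ribosomal stalk protein, with 11033 TPM, Ins2 with 10026, the elongation factor Eef1a1 with 6238, the actin-binding peptide Tmsb4x with 6201 and Ins1 with 5315. Iapp, the amyloid peptide released with insulin, ranked 17 with 2675 TPM, and Gcg ranked 86 with 929 TPM. Lysozyme Lyz2 of macrophages ranked 10 with 3391 TPM, ahead of the fibrillar collagens Col3a1 with 2946 and Col1a1 with 2928 TPM. Sparc, a collagen-binding matrix protein, and Serpinh1, the collagen chaperone, were also among the leading 25 genes, beside ribosomal proteins such as Rps3a1 and broadly expressed genes such as B2m, a subunit of MHC class I, and the ferritin chain Fth1. The order depends on the scale: by mean CPM, with no division by length, 15 of the 25 stayed among the leading 25.

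Outside the protein-coding genes, H19, an imprinted growth-restraining RNA of the fetus, had a median of 4937 TPM. Above it stood Gm23935, a model of 57 bases with 149269 TPM, and models shorter than 200 bases took 11.2% to 20.8% of all TPM, which lowers the TPM of every other gene by that share. When they were left out, 24 of the 25 leading genes remained. The mitochondrial gene mt-Co1, a subunit of the respiratory chain, reached 17010 TPM. The counts were spread over many genes: 88 genes averaged at least 1000 CPM, 2139 at least 100 CPM and 15976 at least 1 CPM.

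Hormone genes took 1.01% ± 0.70 of all counts (SD, n = 7) and 1.18% ± 0.60 without replicate 5 (SD, n = 6). Ins2 (ENSMUSG00000000215, chromosome 7, 142678656 to 142743381 in GRCm38) had a lowest value of 2.27, a median of 5367 and a highest of 9958 CPM. It was highest in replicates 2 and 3. Without replicate 5 its range was 3.54-fold. For Ins1 (ENSMUSG00000035804, chromosome 19, 52264323 to 52265456), the second insulin gene of the mouse, these were 7.44, 2191 and 5898 CPM. Reads common to the paired insulin genes could be split or dropped, so the level of each is uncertain.

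Gcg (ENSMUSG00000000394, chromosome 2, 62474530 to 62483650), the glucagon precursor, ranged between 0.0945 and 1581 CPM with a median of 566, again with replicate 5 lowest and replicate 2 highest. Without replicate 5 its range was 8.77-fold, wider than that of Ins2. Iapp had 8.54, 1027 and 1921 CPM as lowest, median and highest. These 4 genes were all at their minimum in replicate 5.

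The remaining hormones lay closer to the other libraries in replicate 5. Sst (ENSMUSG00000004366, chromosome 16, 23889573 to 23890958), the somatostatin gene of delta cells, had 77.7 CPM there, against a median of 150 and a highest value of 299, a range of 3.85-fold over all 7 libraries. Pancreatic polypeptide Ppy had 19.6, 92.9 and 357 CPM as lowest, median and highest, and peptide YY, Pyy, had 38.5, 79.4 and 240. Ghrelin, Ghrl, the hormone of epsilon cells, stayed between 2.56 and 7.82 CPM and was not lowest in replicate 5.

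The promoters of hormone genes that varied together are shown whether or not they held matches to sites known for islet regulators. Of 5 genes looked up, 4 had an entry in the RefSeq table for GRCm38.p6, and Ins2 had none. Windows are 300 bases long, written from 5′ to 3′ on the gene's own strand, and capitals mark TAAT (the core bound by homeodomain factors such as PDX1), GCCATCTG (an E box of the insulin promoters) and TGACGTCA (the cAMP response element), searched on both strands, with overlapping TAAT matches on opposite strands running together as ATTAAT.
Ins1, chr19:52264047-52264346, plus strand: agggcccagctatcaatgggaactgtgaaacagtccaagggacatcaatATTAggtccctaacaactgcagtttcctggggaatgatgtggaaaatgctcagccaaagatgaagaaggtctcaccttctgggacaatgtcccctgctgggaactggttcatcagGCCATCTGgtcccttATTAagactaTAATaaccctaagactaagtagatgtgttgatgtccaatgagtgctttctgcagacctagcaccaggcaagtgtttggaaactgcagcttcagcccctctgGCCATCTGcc
Iapp, chr6:142298175-142298474, plus strand: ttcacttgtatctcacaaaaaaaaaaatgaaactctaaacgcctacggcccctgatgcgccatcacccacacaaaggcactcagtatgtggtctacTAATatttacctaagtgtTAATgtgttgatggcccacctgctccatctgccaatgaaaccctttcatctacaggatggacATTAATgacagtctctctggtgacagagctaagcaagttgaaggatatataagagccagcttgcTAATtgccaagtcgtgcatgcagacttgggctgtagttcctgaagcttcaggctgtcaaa
Gcg, chr2:62483604-62483903, minus strand: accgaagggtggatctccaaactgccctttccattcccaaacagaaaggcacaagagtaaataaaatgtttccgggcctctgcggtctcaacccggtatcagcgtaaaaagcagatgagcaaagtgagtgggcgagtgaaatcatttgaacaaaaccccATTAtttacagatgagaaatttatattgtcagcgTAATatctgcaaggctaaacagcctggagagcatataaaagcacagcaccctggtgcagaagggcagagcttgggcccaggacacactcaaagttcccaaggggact
Sst, chr16:23890795-23891094, minus strand: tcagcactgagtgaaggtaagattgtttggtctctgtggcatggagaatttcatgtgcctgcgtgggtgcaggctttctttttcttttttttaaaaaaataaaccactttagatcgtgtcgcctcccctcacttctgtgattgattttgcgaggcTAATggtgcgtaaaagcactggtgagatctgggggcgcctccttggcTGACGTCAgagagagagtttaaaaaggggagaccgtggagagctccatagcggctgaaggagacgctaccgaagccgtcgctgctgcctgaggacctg
Ins1 held 3 matches to TAAT and 2 to GCCATCTG, Iapp 5 to TAAT, Gcg 2 to TAAT, and Sst 1 to TAAT and 1 to TGACGTCA. Among 32851 promoter windows of the same length, 58.0% held TAAT, 1.32% held GCCATCTG and 1.79% held TGACGTCA. A match is a description of the letters and not a site shown to be bound.

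**Figure D2:**
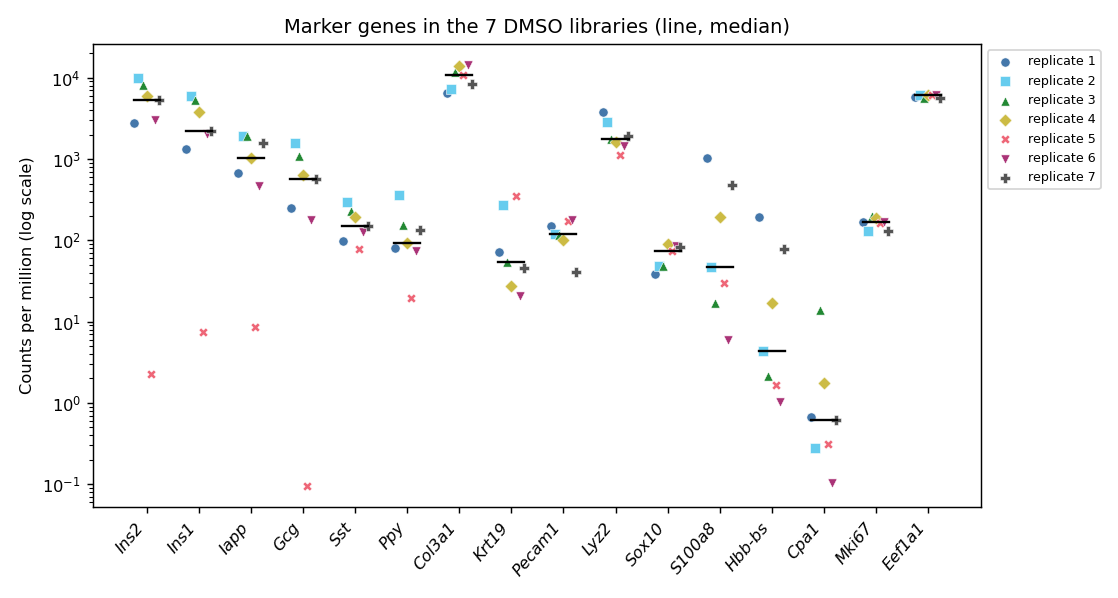
CPM (log scale) of 16 marker genes in the 7 DMSO libraries, 1 symbol per library with a line at the median. Ins2, Ins1, Iapp and Gcg are far lower in replicate 5 than in the other libraries, Sst much less so, and Eef1a1 stays between 5685 and 6168 CPM.

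Transcription factors of beta cells were all detected in every library, but at low levels. The 14 genes together summed to at most 309 CPM and were lowest in replicate 5. Mafa, the maturation factor that activates insulin transcription, had 0.441, 31.7 and 63.5 CPM as lowest, median and highest. Pdx1, which specifies the pancreas and sustains insulin expression, had 3.44 CPM in replicate 5 and a median of 7.54 CPM, and Nkx6-1, a repressor of alternative fates, had 1.32, 13.7 and 26.8 CPM as lowest, median and highest. Isl1, shared by all islet endocrine cells and by neurons, had 8.48, 30.9 and 45.3 CPM, and it was highest in replicate 7. The minima of these 4 factors were in replicate 5, and without it the lowest sum was 109 CPM and the lowest values were 20.5 CPM for Mafa, 5.03 for Pdx1, 6.27 for Nkx6-1 and 13.2 for Isl1. Foxa2 and Glis3, also used outside beta cells, were exceptions in replicate 5, where Glis3 had its highest value, 33.7 CPM, and Foxa2 had 10.6 CPM, exceeded only in replicate 2.

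Genes of beta cell function summed to 552 to 2655 CPM over 18 genes. The most abundant was Cpe, the carboxypeptidase that trims prohormones in all endocrine granules, with 392, 535 and 698 CPM as lowest, median and highest, a far narrower range than that of the insulin genes. Chga, a granule protein, had 18.9, 135 and 307 CPM, and the prohormone convertase Pcsk2 had 11.9, 112 and 258 CPM. G6pc2, the islet glucose-6-phosphatase, had 0.252, 48.0 and 93.7 CPM, and the zinc transporter Slc30a8 had 0.221, 49.3 and 78.2 CPM. The glucose transporter Slc2a2 had 3.18, 25.3 and 60.5 CPM. All of these minima, and that of the sum, were in replicate 5. Without it the lowest sum was 934 CPM, and the lowest values were 22.3 CPM for G6pc2, 24.7 for Slc30a8, 64.2 for Chga, 54.2 for Pcsk2, 12.4 for Slc2a2 and 439 for Cpe. Ucn3, a peptide of mature beta cells, stayed between 0.136 and 1.24 CPM with a median of 0.732.

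Among alpha cell genes, Ttr, the thyroxine carrier, had 4.07, 33.3 and 96.9 CPM as lowest, median and highest. It was lowest in replicate 5 and highest in replicate 2, as Gcg was.

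Markers of endocrine progenitors were scarce or not specific. Neurog3, the factor that starts endocrine differentiation, had 0 to 0.705 CPM and was at 0 in 1 library, and Pax4, a beta cell lineage factor, had 0 in 4 libraries and at most 0.129 CPM. Fev, active just after Neurog3, had 0.312 to 1.24 CPM. Sox4, which acts in progenitors and in many other young tissues, had 196 to 245 CPM, more than any other member of that list of 12 in every library.

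Genes that adult beta cells keep low were expressed at even levels. The 20 genes of this kind summed to 2441 to 3264 CPM, a range of 1.34-fold, highest in replicate 5. Lactate dehydrogenase Ldha had 403 to 441 CPM, the monocarboxylate transporter Slc16a1 had 33.1 to 62.4 CPM, hexokinase Hk1 had 40.4 to 71.5 CPM and the neural repressor Rest had 57.2 to 110 CPM. All of these are used by stromal and immune cells, and how much came from beta cells was not tested.

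**Figure D3:**
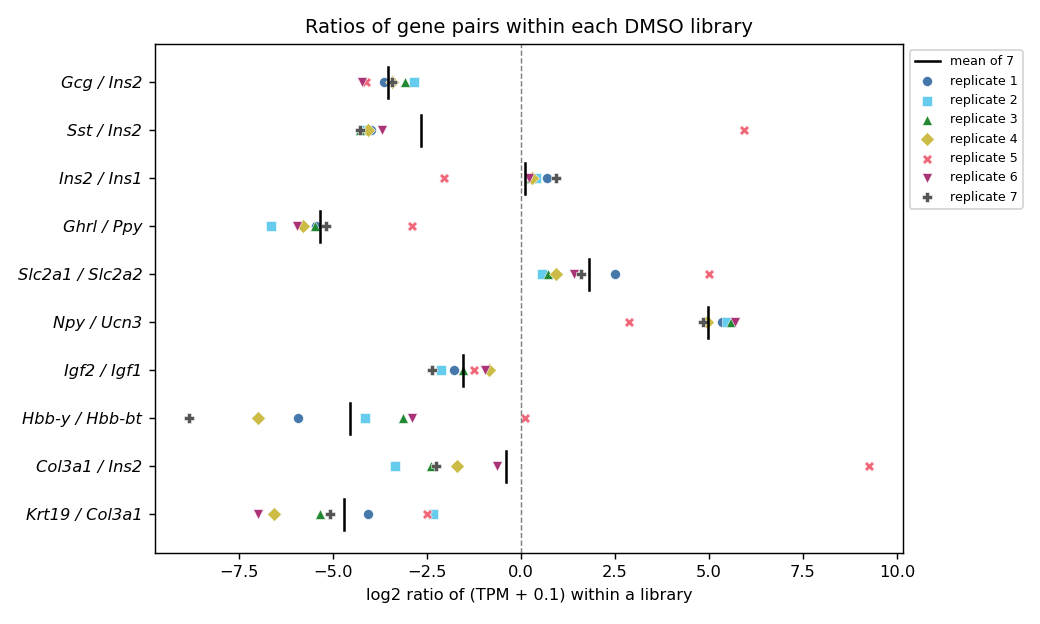
Log2 ratio of TPM plus 0.1 for 10 of the 12 gene pairs tested, within each DMSO library, first gene over the second, with 1 symbol per library and a line at the mean of 7. Replicate 5 stands apart for 5 of the pairs drawn, among them Sst over Ins2 at 5.93 and Col3a1 over Ins2 at 9.27.

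Ratios within a library do not depend on its depth. The mean log2 ratio of TPM plus 0.1 was tested against 0 with an exact two-sided sign-flip permutation test over the 7 libraries, in which the smallest possible p is 0.0156, and 9 of 12 pairs passed an adjusted p of 0.05. Gcg lay 11.7-fold below Ins2 per length (log2 ratio -3.55 ± 0.51, SD, n = 7, lower in 7 of 7 libraries, exact permutation p = 0.0156, adjusted p = 0.0234). That ratio was -4.14 in replicate 5, where it rests on 3 and 72 counts, so both hormones were low there. Sst was 17.1-fold below Ins2 in the 6 libraries without replicate 5 (log2 ratio -4.09 ± 0.23, SD), against a log2 ratio of 5.93 in replicate 5. Over all 7 libraries the Sst to Ins2 ratio missed the threshold, with an exact permutation p of 0.125. Ghrl lay 40.8-fold below Ppy, in 7 of 7 libraries, and 54.2-fold below it without replicate 5.

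Peptides and transporters of mature beta cells lay below their counterparts of newborn or other cells. Npy, a peptide of newborn beta cells and of nerves, was 31.2-fold above Ucn3 per length (log2 ratio 4.96 ± 0.98, SD, n = 7, higher in 7 of 7, exact permutation p = 0.0156). Without replicate 5 the log2 ratio was 5.31 ± 0.35, or 39.7-fold (SD, n = 6). Ucn3 had only 0.246 to 2.15 TPM, so the fold depends on the pseudocount. With TPM plus 1 the log2 ratio over all 7 libraries was 3.98. Slc2a1, the glucose transporter of most cells, exceeded Slc2a2 in 7 of 7, by a mean log2 ratio of 1.81 ± 1.55, and by 1.28 ± 0.72 or 2.43-fold without replicate 5. With no length scaling the Slc2a1 to Slc2a2 ratio was 1.11 and missed the threshold, with an adjusted p of 0.0562. Npy and Slc2a1 are also used outside beta cells, and the part of the other cells in these ratios was not tested.

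Ins2 exceeded Ins1 in 6 of 7 libraries, and without replicate 5 by a log2 ratio of 0.46 ± 0.29, or 1.38-fold (SD, n = 6, exact permutation p = 0.0312, the smallest that 6 libraries allow). Over all 7 the ratio was 0.10 ± 0.99 and missed the threshold, since it was -2.06 in replicate 5. Igf2 lay 2.94-fold below Igf1 per length in 7 of 7 libraries, but Igf2 overlaps other listed genes, so its count of 24.6 to 71.2 CPM is uncertain. For embryonic against adult beta globin, Hbb-y was at 0 in 5 of 7 libraries and Hbb-bt was under 1 CPM in 4, so no fold is given.

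The mesenchymal list held the largest share of counts of any list. It took 3.86% ± 0.87 of counts over 19 genes (SD, n = 7), and no library held less than 2.68% or more than 4.92%. These shares are not divided by gene length, so long genes weigh more: Col3a1 has 9816 bases and Ins2 1312. Col3a1 (ENSMUSG00000026043, chromosome 1, 45311538 to 45349706), a fibrillar collagen of connective tissue, had 6501, 10671 and 14328 CPM as lowest, median and highest. Col1a1, the main collagen of bone and dermis, had 3652, 7575 and 8407 CPM. Both were higher in replicates 3, 4, 5 and 6 than in replicates 1, 2 and 7. This grouping was noticed in the values, and the share of all genes that split this way was not counted. Periostin, Postn, a matrix protein of growing stroma, had 1747, 3036 and 5681 CPM and was highest in replicate 7, where both collagens were low. Per length over all 7 libraries, Col3a1 and Ins2 did not differ detectably (log2 ratio -0.40 ± 4.34, SD, exact permutation p = 0.891). The same ratio on counts with no length scaling was 2.50 and passed the threshold (exact permutation p = 0.0312, adjusted p = 0.0417). Replicate 5, with a ratio per length of 9.27, enters both values. Without it Col3a1 lay 4.03-fold below Ins2 per length (log2 ratio -2.01 ± 0.90, SD, n = 6).

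Smooth muscle and pericyte genes summed to 1249 to 2047 CPM. Acta2, smooth muscle actin, had 429, 683 and 773 CPM as lowest, median and highest, and the pericyte gene Rgs5 had 123, 213 and 525 CPM. Tagln, another smooth muscle gene, is listed at only 3.17 to 5.98 CPM; it overlaps other listed genes, and its count is uncertain. Mesothelial genes summed to 168 to 333 CPM in 6 libraries and to 59.0 CPM in replicate 4. Upk3b, a uroplakin of mesothelium, had 6.79 CPM in replicate 4 and 29.0 to 78.2 CPM in the others.

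Transcripts of exocrine tissue were found at low and uneven levels. Acinar genes summed to 16.8 to 619 CPM over 22 genes, a range of 36.9-fold, and 9 of the 22 were at 0 in at least 1 library. The chymotrypsinogen gene Ctrb1 had 182 CPM in replicate 3 and 0.0620 to 12.3 CPM elsewhere, and Try5, a trypsinogen, had 156 CPM in replicate 3 and 0 to 16.4 CPM elsewhere. In replicates 1, 2, 5 and 7 the largest member was Reg1, a lectin of acinar and gastric cells, which had 101 CPM in replicate 5 and 0.443 CPM in replicate 6. Members of the trypsinogen family are near-identical, so counts of each are uncertain. Without replicate 3 the mean share of acinar genes was 0.00764% of counts, against 0.0154% with it.

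Duct genes summed to 444 to 3112 CPM over 13 genes. Krt19 (ENSMUSG00000020911, chromosome 11, 100140810 to 100148665), a keratin of duct and mesothelium, had 20.9, 53.6 and 353 CPM as lowest, median and highest. It was high in replicates 5 and 2, with 353 and 272 CPM, and at most 72.6 CPM in the other 5. Krt8, its partner in simple epithelia, had 93.5, 266 and 871 CPM, and the adhesion molecule Epcam had 29.7, 85.7 and 250 CPM, with the same pair of libraries on top. Spp1, osteopontin, made by duct cells and macrophages, had 150, 532 and 705 CPM, and Sox9, the duct progenitor factor, had the narrowest range of the list, 2.70-fold. Krt19 lay 26.2-fold below Col3a1 per length in 7 of 7 libraries (log2 ratio -4.71 ± 1.84, SD, exact permutation p = 0.0156, adjusted p = 0.0234).

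The liver and gut lists had the lowest median sums in the plot of list content. Of the liver list, Alb, serum albumin, had at most 0.358 CPM and the 9 genes together 2.22 to 6.88 CPM. The 5 gut genes summed to 3.10 to 21.6 CPM, highest in replicate 5. Most of this was Vil1, a microvillus protein of gut and other epithelia, with 2.76 to 13.9 CPM. Alpi was at 0 in all 7 libraries, Fabp2 at 0 in 4, and Cdx2, the intestinal master factor, reached 5.96 CPM in replicate 5. Genes outside the gut list that led the principal components, and that intestinal epithelium is known to express, reached higher levels. Agr2, a disulphide isomerase needed for mucin folding, had 37.2, 40.9, 60.4 and 62.2 CPM in replicates 1, 2, 5 and 7, and 0 to 2.20 CPM in the other 3. Tff3, a trefoil peptide, had 45.6 to 116 CPM in those 4 libraries and 0 to 6.56 in the other 3. Both genes were named because they led the first component, which sets the same 4 libraries apart, so this split follows from the choice. Clca1, a secreted mucus protease, had 84.5 CPM in replicate 2, more in replicate 5 and 0 in replicate 6, Spink4, a protease inhibitor, had 0.171 to 62.2 CPM, and the antibacterial lectin Reg3g had 0 to 30.5 CPM. Fcgbp, a mucus protein, had 408 and 211 CPM in replicates 5 and 2 and 0.102 to 36.5 CPM elsewhere.

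Endothelial genes summed to 360 to 1443 CPM, and all 16 were detected in every library. Pecam1, the adhesion molecule of endothelium, had 41.2, 119 and 176 CPM as lowest, median and highest, and Cdh5, endothelial cadherin, had a median of 125 and a highest value of 197 CPM. Eng, endoglin, had 64.1, 173 and 301 CPM. All 3 were lowest in replicate 7, the most deeply sequenced library.

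Macrophage genes took 0.397% ± 0.125 of counts (SD, n = 7). Lyz2 had 1115, 1750 and 3787 CPM as lowest, median and highest, and the complement gene C1qa had 289, 346 and 469 CPM. Csf1r, the receptor for the main macrophage growth factor, had 129, 176 and 253 CPM. Replicate 1 was highest for all 3. Lymphocyte genes summed to 136 to 285 CPM: Cd4, also carried by some macrophages, had 47.5 to 101 CPM, and Ms4a1, the B cell marker CD20, had 19.1 to 56.1 CPM, while the T cell receptor component Cd3e stayed between 0.485 and 3.28 CPM.

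Granulocyte and mast cell genes spread 21.4-fold, with sums of 131 to 2794 CPM. The calprotectin genes S100a8 and S100a9, abundant in neutrophils, had 1028 and 1211 CPM in replicate 1, 485 and 624 CPM in replicate 7, and 191 and 185 CPM in replicate 4. In the other 4 libraries S100a8 lay between 6.00 and 47.6 CPM. The red cell genes, whose sums spread 108-fold over 2.42 to 262 CPM, were highest in the same 3 libraries: Hbb-bs, adult beta globin, had 193, 17.1 and 79.2 CPM in replicates 1, 4 and 7 and 1.02 to 4.31 CPM elsewhere. Ear6 and Prg2, eosinophil granule genes, had 39.7 and 135 CPM in replicate 1 and 35.7 and 133 CPM in replicate 7, against at most 2.42 and 5.79 CPM elsewhere. This grouping was noticed in the values, and its cause was not tested.

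Schwann cell and neuron genes summed to 421 to 1018 CPM over 13 genes. Sox10, the glial master factor, had 38.9, 73.0 and 91.1 CPM as lowest, median and highest, and Ngfr, a neurotrophin receptor, had 72.9, 184 and 324 CPM. The neuronal filament gene Prph spread further, with 1.45 CPM in replicate 4, a median of 48.3 and 212 CPM in replicate 7. Tyrosine hydroxylase, Th, made by sympathetic neurons, had 23.6 CPM in replicate 7 and at most 1.84 CPM elsewhere.

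Proliferation genes were among the most even, with sums of 1187 to 1598 CPM over 20 genes, a range of 1.35-fold. Mki67, present in all dividing cells, had 130, 170 and 202 CPM as lowest, median and highest, and Top2a, which untangles replicated DNA, had 195, 217 and 250 CPM. The median of the gene-wise biological coefficient of variation (BCV, the relative SD between libraries beyond counting noise) was 0.179 for the list and 0.238 for all 17664 genes with a mean of at least 0.5 CPM.

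Genes of fetal and newborn growth summed to 5548 to 9315 CPM over 16 genes. H19 had 3485 to 6013 CPM, Dlk1, a Notch-like imprinted gene, had 215 to 818 CPM and the imprinted adaptor Grb10 had 305 to 707 CPM. Igf2bp3, a fetal RNA-binding protein, had 20.2 to 28.2 CPM. The sex-linked genes separated the pools. Xist, expressed from the inactive X, was highest in replicate 2 with 1518 CPM and lowest in replicate 4 with 290 CPM. Ddx3y, on the Y chromosome, was lowest in replicate 2 with 8.37 CPM and highest in replicate 4 with 167 CPM.

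The common BCV of the 7 libraries was 0.321. The least variable genes at 10 CPM or more included Exoc3, a subunit of the exocyst, with 69.3 to 71.3 CPM, and the Polycomb subunit Suz12 with 93.6 to 106 CPM. The most variable 10 were Ear6, Try5, Ctsg, Mpo, Ctrb1, Prg2, Clca1, Chil3, Fcgbp and Agr2, with BCVs of 1.47 to 1.89. A BCV above 1 was found for 185 genes, or 1.05% of those kept. The hormone list had a median BCV of 0.780, against 0.371 for endothelial and 0.248 for mesenchymal genes. Among genes averaging at least 100 CPM the median was 0.168. All these BCVs include replicate 5. Summed hormone genes spread 126-fold with it and 3.81-fold without it. Summed endothelial genes spread 4.01-fold with it and 3.90-fold without, and summed mesenchymal genes 1.83-fold either way.

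**Figure D4:**
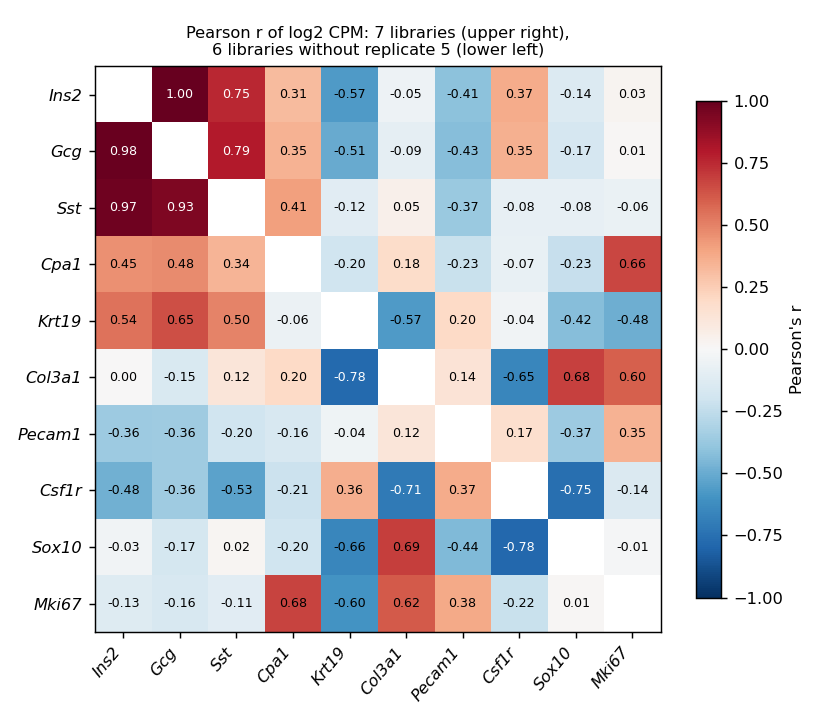
Pearson's r of log2 CPM between 10 marker genes, over all 7 DMSO libraries in the upper right and over 6 libraries without replicate 5 in the lower left. Ins2, Gcg and Sst varied together in both, and Krt19 against Ins2 and Gcg changes sign when replicate 5 is left out.

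Hormones of different endocrine cells varied together between pools. Of 45 pairs among 10 marker genes, tested on log2 CPM with exact two-sided permutation and Benjamini-Hochberg adjustment over the 45, the 3 pairs among Ins2, Gcg and Sst passed. For Ins2 and Gcg, r was 0.996 (exact permutation p = 0.000595, adjusted p = 0.0134) and Spearman's rho was 0.964 (exact permutation p = 0.00278). For Ins2 and Sst, r was 0.750 (exact permutation p = 0.000198, adjusted p = 0.00893) and rho was 1.00 (exact permutation p = 0.000397). For Gcg and Sst, r was 0.791 (exact permutation p = 0.000992, adjusted p = 0.0149) and rho was 0.964 (exact permutation p = 0.00278).

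Over the 6 libraries without replicate 5, r was 0.985 for Ins2 and Gcg, 0.971 for Ins2 and Sst and 0.932 for Gcg and Sst, with exact permutation p-values of 0.00417, 0.00139 and 0.00972. None of these passed adjustment, and 1 pair alone cannot with 6 libraries, since the smallest possible p of 0.00139 becomes 0.0625 over 45 pairs. All 3 calls were likewise lost without replicates 2, 3, 4 or 7, where r stayed at 0.996 to 0.997 for Ins2 and Gcg, 0.740 to 0.770 for Ins2 and Sst and 0.780 to 0.804 for Gcg and Sst. Without the 2 libraries farthest from the median of the first gene, the r values were 0.999, 0.959 and 0.985. Csf1r and Sox10 ran opposite (r = -0.754, exact permutation p = 0.0399, adjusted p = 0.449, and rho = -0.821, exact permutation p = 0.0341), but did not pass adjustment. With 1 replicate left out, r for this pair ran from -0.861 without replicate 6 to -0.529 without replicate 1. Without the 2 farthest libraries r was -0.309. Leaving those out also narrows the range, so it cannot show that the relation rests on them. Col3a1 showed no detectable relation to Ins2, with r of -0.053 and an exact permutation p of 0.937. Krt19 had r of -0.567 with Ins2 over 7 libraries and 0.542 over 6, neither past the threshold.

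The genes that followed each marker were read against all other genes kept. Next to Ins2, r of at least 0.8 was reached by 12 of 18 beta cell function genes, 10 of 14 beta cell factors and 5 of 8 other hormones, against 1.81% of all genes. Without replicate 5 these were 17 of 18, 10 of 14 and 7 of 8, against 2.80%. Its closest followers were Slc30a8 (r = 0.998), Gcg, Ins1, G6pc2 and Slc5a10, a sugar transporter. At the other end stood Hspa1a, Penk, Yrdc and Ngef, and of these only Penk, an opioid peptide precursor, stayed strongly opposed without replicate 5, at -0.898.

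For Gcg, 14 of 18 beta cell function genes and 4 of 7 other alpha cell genes passed r of 0.8, against 1.94% of all genes, and 16 of 18 and 4 of 7 without replicate 5, against 2.56%. Its top 5 were G6pc2, Slc30a8, Ins2, Anks4b and Iapp.

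Next to Col3a1, 8 of 18 other mesenchymal genes passed, against 6.06% of all genes, and 9 of 18 against 8.78% without replicate 5. The leading followers were Dennd2a, Rcc1l, the collagen receptor Ddr2 (r = 0.989), the receptor kinase Axl and Hic1. Selenop, the selenium carrier, ran opposite at -0.979. Next to Krt19, 7 of 12 other duct genes passed against 2.47% of all genes, and 6 of 12 against 2.62% without replicate 5. Of the gut genes kept, 2 of 2 passed, and 1 of 2 without replicate 5, so following Krt19 was not particular to duct genes. Its closest followers were Col13a1, Gsto1, Tmem102, the collagenase Mmp13 and Ocln, a tight junction protein (r = 0.989).

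**Figure D5:**
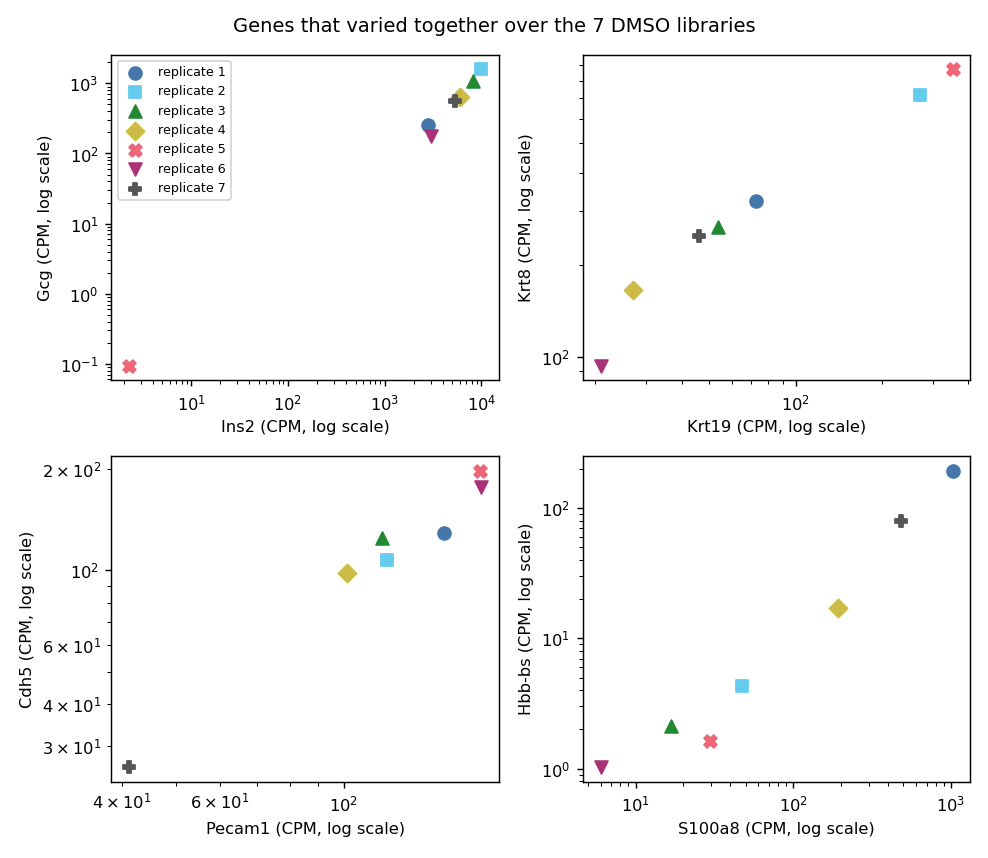
CPM (log scales on both axes) of 4 gene pairs, 1 symbol per DMSO library. Ins2 and Gcg, Krt19 and Krt8, Pecam1 and Cdh5, and S100a8 and Hbb-bs each line up, with different libraries at the extremes of each pair.

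Vascular and blood cell genes formed further blocks, described here after their values were seen. Next to Pecam1, 11 of 15 other endothelial genes passed r of 0.8, against 7.51% of all genes, and 11 of 15 against 7.49% without replicate 5. Next to S100a8, 9 of 11 other granulocyte and mast cell genes and 5 of 6 red cell genes passed, against 8.24% of all genes, and 9 of 11 and 5 of 6 against 9.31% without replicate 5. The median r between members was 0.927 for beta cell function, 0.908 for endothelial, 0.929 for red cell and 0.844 for granulocyte genes, and -0.00 over all pairs of genes kept. Mesenchymal genes were looser, at 0.441, and endocrine progenitor genes did not move together, at -0.150.

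On principal components of the 5000 most variable genes, the first took 29.8% and the second 26.8% of the variance. The first put replicates 7, 1, 5 and 2 at its positive end and replicates 6, 4 and 3 at the other. Its positive end was led by Agr2, Ear6, Clca1, Tff3 and Akr1b7, and its negative end by Cel, a pancreatic lipase, Gcg, Ins2, Hoxa10 and Ins1. The second set replicate 5, with 59.3, apart from replicates 7 and 4, with -36.3 and -31.3. Gcg and Ins2 led its negative end, followed by Ms4a3, Hbb-bt and Ctsg of blood cells, and Clca3b, Krt6a and Nos1 led its positive end. Without replicate 5 the first component took 38.0%, with Ear6, Ear1, Agr2, Prg2 and Chil3 at the end of replicates 7 and 1 and Acod1, Hoxa10, Sost, Amy2a1 and Cel at the end of replicates 6, 3 and 4. The insulin genes and Gcg were then among the 10 leading genes of neither end of the first or second component, so their place there rests on replicate 5.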

How the data were processed

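RNA was measured by poly-A sequencing in 7 DMSO libraries, grouped by their labels. The authors deposited raw counts per gene, made with featureCounts 1.5.0-p3 from paired-end alignments by HISAT2 2.0.5 (build GRCm38/mm10). Which annotation release, strand mode and multi-mapping rule they used is not given in the sources used here; overlapping or near-identical genes are therefore uncertain. The 7 columns of other samples in the table were not used. TPM used the deposited gene length.

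Genes averaging at least 0.5 CPM were kept (17664 of 54532, with 99.8% of counts). This replaced edgeR's filterByExpr, which in 1 group demands counts in every library and would drop genes such as Gcg. TMM factors, log2 CPM (prior count 2) and BCV came from edgeR 4.0.16 in R 4.3.3, and DESeq2 1.42.0 gave alternative size factors. Correlations used exact permutation and ratios exact sign flips, both adjusted by Benjamini-Hochberg, in Python 3.11.15. Scripts were tested on simulated data. Of the 12 ratios, 10 are shown, and the results of some named genes are not reported here. Components used 5000 genes by median absolute deviation.

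Named genes were, by rule, the 25 leading nuclear protein-coding genes and 5 of other biotypes, members of 26 gene lists, 10 markers, the 10 most and least variable genes at 10 CPM, 5 followers and 5 opposites of 4 markers, and 10 loadings at each end of 2 components. Examples within lists, and the followers of Pecam1 and S100a8, were picked after their values were seen. The libraries, lists and tests were chosen with earlier results of these data known. Labels do not say that libraries come from separate litters, so p-values measure the spread between these pools. All 21 library pairs differed beyond counting noise, with a chi-square of at least 26.8 per degree of freedom.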

Additional observations from a re-analysis of the deposited data

Results flagged for a closer look

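Of 48 values examined on a log scale, 12 had 1 library that stood apart. Its gap to its nearest neighbour was a larger part of the range than Dixon's 95% limit allows. Chance gives about 1 in 20 for a single value. Several of the 12 share the Ins2 count, so they are not independent, and no excess over chance was tested. Most of the 12 were replicate 5. There the hormone genes summed to 160 CPM, against 5318 to 20283 CPM in the other libraries, Ins2 had 2.27 CPM and Gcg 0.0945 CPM. Its log2 ratios also stood apart, with 5.93 for Sst over Ins2, -2.06 for Ins2 over Ins1, -2.90 for Ghrl over Ppy, 2.87 for Npy over Ucn3 and 9.27 for Col3a1 over Ins2. Replicate 7 had the highest total, 108865228 counts, and the lowest endothelial signal, with 360 CPM summed over the list and 41.2 CPM of Pecam1. Replicate 4 had the lowest mesothelial sum, 59.0 CPM. The cause of these departures was not tested.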

How the results depend on the processing

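No paired analysis was possible because only the DMSO libraries entered and each replicate number occurs once among them. Scaling by library totals, DESeq2 size factors, a prior count of 0.5 and Spearman's rho each left 3 marker pairs past the threshold, while leaving out the 2 farthest libraries left 0, and leaving out 1 replicate gave 0 to 3, with 3 kept without replicate 1 or 6. With 6 libraries fewer pairings exist. The number of gene ratios past the threshold was 8 to 12 with 1 replicate left out, 12 being without replicate 5 and 8 without any other, and 9 with no length scaling or a pseudocount of 1. The ratio of Col3a1 over Ins2 changed direction, to 2.50 with no length scaling and 0.09 without replicate 2, and that of Ins2 over Ins1 to -0.04 without replicate 7. Per length, neither ratio passed the threshold over all 7 libraries. With no length scaling Col3a1 over Ins2 did pass, in the reversed direction (exact permutation p = 0.0312, adjusted p = 0.0417). Of the 25 leading genes, 15 remained by mean CPM and 23 to 24 with 1 replicate left out. The first component took 37.1% with 500 genes and 32.2% to 38.0% with 1 replicate left out. The common BCV was 0.415 with no filter beyond 1 count and 0.268 with filterByExpr, an alternative added after seeing the data, and 0.296 to 0.330 with 1 replicate left out, lowest without replicate 7. Followers at r of at least 0.9 numbered 132 for Ins2, 156 for Gcg, 329 for Col3a1 and 196 for Krt19. With 1 replicate left out, followers at 0.8 numbered 423 to 720 for Ins2, 442 to 753 for Gcg, 939 to 1747 for Col3a1 and 463 to 662 for Krt19, the highest always without replicate 7, against 320, 343, 1071 and 436 over all 7. Mean content shares of 10 lists moved by less than 1 SD, but some SDs are as large as the mean. Without replicate 1 the red cell share was 0.00278%, against 0.00613% with it, and the granulocyte share 0.0490%, against 0.0819%. Without replicate 3 the acinar share was 0.00764%, against 0.0154%. Depth limits genes listed at 0, for which 3 counts are the bound.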
